A study of Mus musculus with 6 samples.

Results

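Transcripts of bile acid transport and sensing were followed in proximal tubules of Clcn5 knockout and wild type mice. The 9 genes are Slc10a2, Slc10a1, Slc51a, Slc51b, Fabp6, Nr1h4, Nr0b2, Nr5a2 and Gpbar1, and every probe set that the platform annotation assigns to one of these symbols alone was taken. A probe set is a group of oligonucleotide probes that reads 1 transcript. The annotation gave 12 such probe sets for 8 of the 9 genes, out of 45037 probe sets that are not controls and 18193 genes with a symbol of their own. No probe set carried the symbol Gpbar1, the gene of the membrane bile acid receptor TGR5, so it is not analysed here. The set was chosen by the measured rise of Slc10a2 in knockout on these arrays, and the other genes by their role beside it, with their values already known. The comparison of knockout with wild type is therefore given for the members as a description, without a test.

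Proximal tubules were dissected by hand from perfused left kidneys in ice-cold salt solution, with 80 to 100 pieces of 2 mm from each kidney. One group held tubules of mice lacking Clcn5, the gene of the endosomal chloride/proton exchanger ClC-5, and the other tubules of wild type mice. Each group had 3 Affymetrix arrays, and each array carried RNA pooled over 3 to 4 mice per the labels or over 7 mice per the records stored with the arrays. The sources used here do not give the strain, age or sex of the mice or the deleted part of Clcn5. All 4 Clcn5 probe sets were lower in knockout, by 2.83-fold to 7.31-fold, on every array. Of the listed proximal tubule markers, 12 of 12 of the S1 and S2 segments and 10 of 10 of the S3 segment passed the filter on dim signals. So did 6 of 6 thick ascending limb, 6 of 6 distal convoluted tubule and 7 of 7 endothelial genes. Passing the filter therefore does not set the proximal tubule apart. The pools also held other nephron and tissue cells, whose marker lists are given beside the first result.

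Bile acids are made from cholesterol in the liver, and most are taken back from the gut. Slc10a2 encodes ASBT, the sodium-coupled carrier that brings bile acids into ileal cells and, in the kidney, from the tubular fluid into proximal tubule cells. Inside ileal cells Fabp6 binds them, and Slc51a and Slc51b encode the subunits α and β of the basolateral exporter OST, which returns them to the blood. Slc10a1 encodes NTCP, the related carrier of the sinusoidal membrane of hepatocytes. The nuclear receptor FXR, encoded by Nr1h4, binds bile acids and induces Nr0b2 (SHP), a repressor that acts on LRH-1, encoded by Nr5a2. In the intestine this circuit lowers Slc10a2 and raises Fabp6 and the OST genes when bile acids are plentiful.

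The promoter windows of the importer and of both exporter subunits are shown because these genes set uptake against export. They come from RefSeq on GRCm38.p6 and run from 250 bases before to 50 bases after an annotated transcription start. All lie on the minus strand and are written 5′ to 3′ along the gene, Slc10a2 at chr8:5105238-5105537, Slc51a at chr16:32487830-32488129 and Slc51b at chr9:65422724-65423023. Capitals mark exact matches, on either strand, to one of 4 motifs: an LRH-1 site CAAGGTCA, the core site AGGTCA of nuclear receptors such as FXR and PPAR, an AP-1 site TGANTCA and an E-box CACGTG. N stands for any base. The motifs were settled after the windows had been read. The LRH-1 site contains the core site, and no other marked matches overlapped.
Slc10a2: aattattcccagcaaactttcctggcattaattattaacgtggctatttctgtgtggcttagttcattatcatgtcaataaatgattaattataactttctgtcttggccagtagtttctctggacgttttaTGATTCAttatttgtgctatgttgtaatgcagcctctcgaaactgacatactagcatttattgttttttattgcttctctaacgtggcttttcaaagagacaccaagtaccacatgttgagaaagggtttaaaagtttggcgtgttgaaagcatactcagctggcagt
Slc51a: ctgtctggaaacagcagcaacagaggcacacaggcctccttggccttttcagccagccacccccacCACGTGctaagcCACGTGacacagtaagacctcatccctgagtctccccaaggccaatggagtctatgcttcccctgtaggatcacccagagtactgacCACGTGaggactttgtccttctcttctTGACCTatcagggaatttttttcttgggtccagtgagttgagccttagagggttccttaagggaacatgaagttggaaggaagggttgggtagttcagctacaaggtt
Slc51b: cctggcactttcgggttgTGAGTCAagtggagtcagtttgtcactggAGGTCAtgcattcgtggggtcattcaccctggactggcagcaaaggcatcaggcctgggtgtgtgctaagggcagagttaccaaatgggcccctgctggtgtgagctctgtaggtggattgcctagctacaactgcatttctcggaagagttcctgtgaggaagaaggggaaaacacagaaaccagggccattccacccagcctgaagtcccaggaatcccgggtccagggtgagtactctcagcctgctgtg

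The Slc10a2 window held 1 match to the AP-1 pattern, TGATTCA, 118 to 112 bases before the start. The AP-1 site bound by Fos and Jun family proteins usually has C or G as its middle base, and this match has T. With any middle base allowed, the pattern was found in 7.81% of 32851 mouse promoter windows of this length. The Slc51b window also held 1 match, TGAGTCA, 232 to 226 bases before the start. It held 1 nuclear receptor core site as well, 203 to 198 bases before the start. The Slc51a window held 1 core site, 58 to 53 bases before the start, and 16.3% of the windows held one. It also held 3 E-boxes, a motif read by clock and other basic helix-loop-helix factors, and 7.15% of the windows held at least 1. The LRH-1 site, present in 1.56% of the windows, was in none of these 3. Such a match is a string of letters and not a measured binding site.

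Slc10a2, the importer, was the member with a large difference. Its signal on probe set 1450245_at was 306, 372 and 260 on knockout arrays 1 to 3 and 16.5, 20.5 and 16.9 on wild type arrays 1 to 3. Every knockout array was thus far above every wild type array, and the lowest knockout signal came from array 3. The means were 313 ± 56.3 (SD, n = 3) in knockout and 18 ± 2.22 (SD, n = 3) in wild type. The fitted difference was 4.11 on the log2 scale (SE 0.18, 95% interval 3.70 to 4.52), which is 17.3-fold. Signals are MAS5 intensities on a linear scale, scaled by the authors to the same trimmed mean on each array, and differences are fitted as log2 of the signal.

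The size of this rise depends on how a dim signal is read. On each array 27.0% to 31.8% of all probe sets lay under the wild type mean of Slc10a2, and no detection calls were part of the table used here, so whether the transcript was detected in wild type is unknown. Adding 50 to each signal before taking log2, which damps dim values, gave a difference of 2.40 (SE 0.12, 95% interval 2.13 to 2.68). On that scale the values correspond to a 5.29-fold ratio of signal plus 50. The gene passed the filter on dim signals, a mean log2 signal at the median of all probe sets (41.9 as a signal), through its knockout arrays, since it was below the array's median on all 3 wild type arrays. The washing station recorded for each array was shared between the groups. On station 1, with 2 arrays of each group, the difference was 4.34, and on station 2, with 1 array of each, it was 3.66. The knockout array on station 2, array 3, also had a recorded solution lot of its own, while the other 5 arrays shared a lot. Its median signal was 48.8, beside 40.9 to 45.3 on the others. Leaving out any array gave 3.98 to 4.24.

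**Figure D1:**
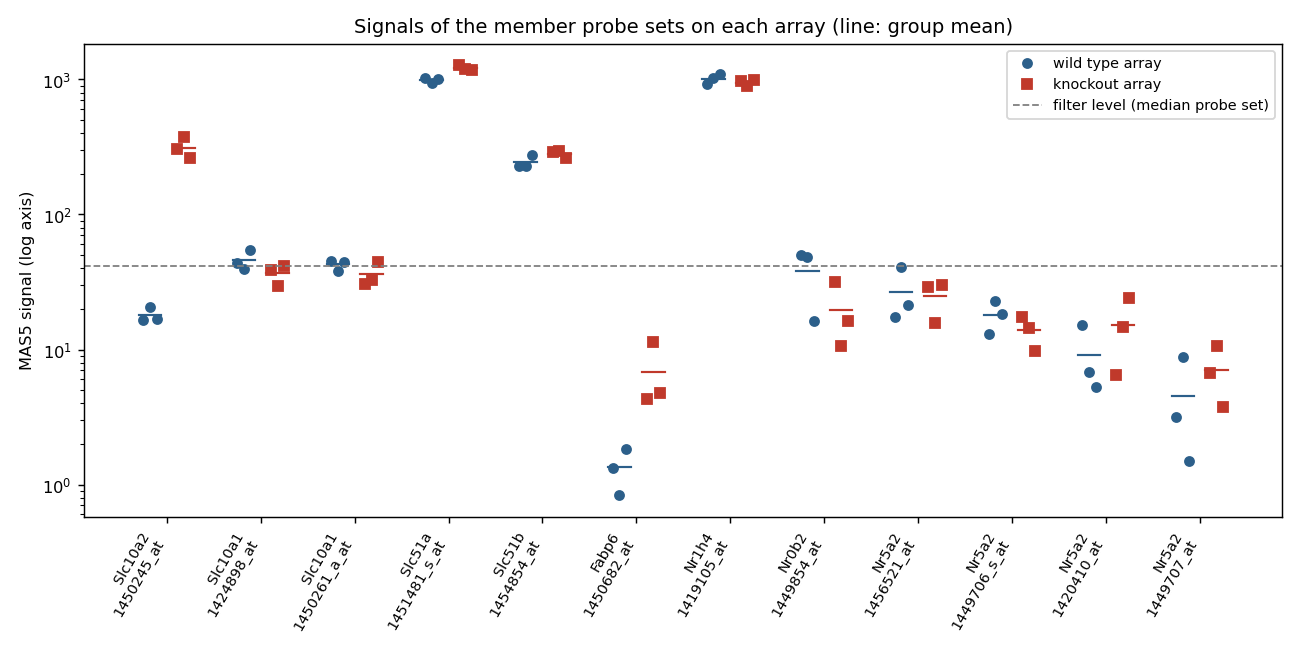
Signals of the 12 member probe sets on each array, on a log axis. Circles are wild type arrays, squares knockout arrays, short lines the group means and the dashed line the filter level of 41.9. Slc10a2 is at 260 to 372 in knockout and at 16.5 to 20.5 in wild type, while Slc51a, Slc51b and Nr1h4 lie above the filter level in both groups.

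Markers of some other cell types were also higher on the knockout arrays, while those of others overlapped or were lower. The summed signal of 7 of 8 listed leukocyte genes was 2530 to 2620 in knockout and 1730 to 1750 in wild type, and that of 6 of 7 podocyte genes was 1450 to 1680 against 1140 to 1180. Sums were also higher for 6 thick ascending limb genes (10100 to 10800 against 8130 to 8440) and 6 distal convoluted tubule genes (11200 to 12300 against 9450 to 10400). At a limma adjusted p under 0.05, 2 of the thick limb genes and 4 of the distal genes rose and 0 fell. The leukocyte list had 2 genes that rose and 0 that fell, and the podocyte list likewise 2 and 0. Most of the leukocyte gap lay in Cd74, which averaged 1100 in knockout and 662 in wild type, and Csf1r (873 and 583). Cd14 (162 and 154), Lyz2 (125 and 108) and Cd68 (60.1 and 50.8) differed little. Umod averaged 5150 in knockout and 3880 in wild type, and Calb1 5300 and 3920. The thick limb genes Kcnj1 (1010 and 1020) and Ptger3 (84.3 and 92.3) and the distal gene Slc12a3 (2600 and 2850) were not higher. For 6 of 7 fibroblast and muscle genes the sums were 1100 to 1110 against 950 to 1050, and for 7 endothelial genes they overlapped (1890 to 2150 against 1920 to 2020). Sums of 8 collecting duct genes (4760 to 4940 against 4600 to 5210, with 2 that rose and 2 that fell) and of 3 thin limb genes (2930 to 3270 against 3110 to 3250) overlapped. Those of 4 hepatocyte genes were lower in knockout without overlap (8080 to 9400 against 9600 to 10900). The lower sum came from Ttr, which averaged 1520 in knockout and 3260 in wild type. Cyp2e1 averaged 7230 and 6760, Alb 100 and 109 and F2 46.8 and 54.1. Both erythrocyte genes on the array were too dim for the filter. The S1 and S2 sums also overlapped (39500 to 41800 against 40000 to 44000), as did the S3 sums (32800 to 36700 against 30500 to 34000). Single genes of these lists still differed. Of the 12 S1 and S2 genes 1 fell and 0 rose at that threshold, and of the 10 S3 genes 2 rose and 0 fell. The S1 and S2 gene Slc6a19 averaged 1950 in knockout and 2760 in wild type, and the S3 gene Slc7a13 4780 and 3690. Slc10a2 differed by 17.3-fold, or 5.29-fold with 50 added, and the part of these cells in its difference was not tested. In pooled tissue, a change in the number of cells of a type and a change in RNA per cell cannot be told apart. Of 7 markers of the enterocyte, the best known site of Slc10a2, 3 passed the filter, and their sums overlapped (1010 to 1150 in knockout and 1090 to 1280 in wild type). Vil1, of the brush border protein villin, which the proximal tubule also makes, averaged 926 and 1020, Muc13 77.5 and 76.4 and Lgals4 66.2 and 60.7 in knockout and wild type. The other 4, Fabp2, Lct, Apoa4 and Cdx2, were too dim for the filter. The signal of Fabp2 was 6.54 to 15.6 over the 6 arrays.

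Slc51a and Slc51b, the exporter subunits, differed far less than the importer. Slc51a on probe set 1451481_s_at had signals of 1270, 1190 and 1180 on knockout arrays 1 to 3 and 1030, 942 and 1000 on wild type arrays 1 to 3. The groups did not overlap, and the mean was 1210 ± 52.0 in knockout and 990 ± 43.8 in wild type (SD, n = 3). The log2 difference was 0.29 (SE 0.06, 95% interval 0.15 to 0.44), or 1.22-fold, and it was 0.28 with 50 added. On station 1 the difference was 0.28 and on station 2 it was 0.32.

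Slc51b on probe set 1454854_at had signals of 290, 294 and 261 in knockout and 228, 230 and 275 in wild type. The groups overlapped, because wild type array 3 was above knockout array 3. The means were 282 ± 17.8 and 244 ± 26.3 (SD, n = 3), with a log2 difference of 0.21 (SE 0.10, 95% interval −0.02 to 0.44). A rise of the subunit beyond 1.35-fold lay outside this interval.

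The same signals can be set against the exporter within each array, which describes the difference that chose the gene in another form. The log2 ratio of Slc10a2 to Slc51a was 3.82 higher in knockout than in wild type, with SDs of 0.26 and 0.24 (n = 3 each). For Slc51b the ratio was 3.90 higher and for Nr1h4 4.20 higher. These values rest on the dim wild type signals of Slc10a2 and shrink with 50 added to both genes of a ratio, to 2.13 for Slc51a (SDs of 0.23 and 0.11, n = 3 each), 2.23 for Slc51b and 2.49 for Nr1h4. On either scale every knockout array stood above every wild type array, the smallest gap for Slc51a being 3.34, and 1.83 with 50 added. A ratio within an array shows that the transcripts changed unequally and gives no level of one relative to the other, since probe sets differ in how brightly they read.

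**Figure D2:**
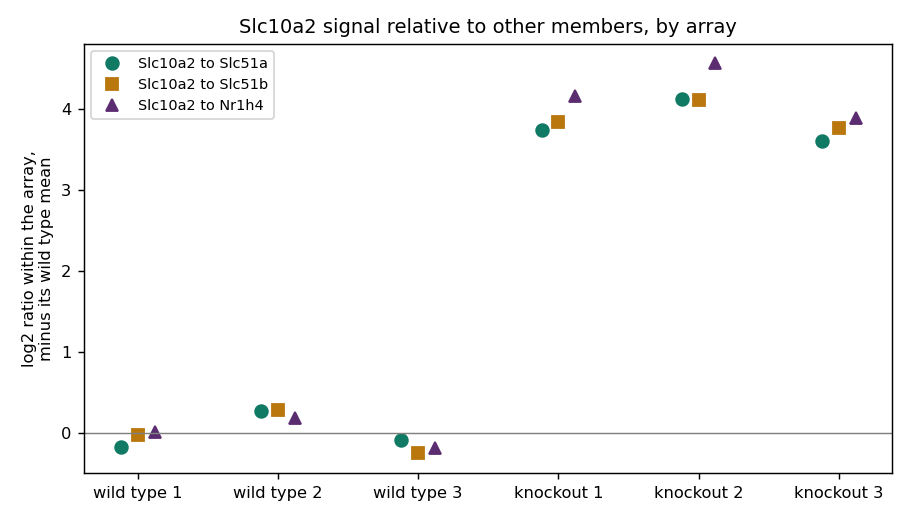
Log2 ratio of the Slc10a2 signal to the signal of Slc51a, Slc51b or Nr1h4 within each array, drawn as the deviation from the mean ratio of the 3 wild type arrays. The knockout arrays stand 3.82 higher on average for Slc51a, 3.90 for Slc51b and 4.20 for Nr1h4. With 50 added to both signals, which is not drawn, the values are 2.13, 2.23 and 2.49.

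Slc10a1, the hepatocyte carrier, was dim in both groups. Its probe set 1424898_at gave 39.0, 29.7 and 41.3 in knockout and 43.8, 39.7 and 54.2 in wild type, with overlapping groups and a log2 difference of −0.33 (95% interval −0.88 to 0.23). The second probe set, 1450261_a_at, gave −0.26 (95% interval −0.82 to 0.29). Both intervals lie far below the difference of its paralog Slc10a2, and both probe sets were just under the filter level.

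Fabp6, the binding protein of ileal cells, was very dim in both groups. Its signals were 4.28, 11.3 and 4.76 in knockout and 1.33, 0.84 and 1.84 in wild type, all below the median of their array. The groups did not overlap, and the log2 difference was 2.27, with a wide 95% interval from 0.80 to 3.74. With 50 added it was 0.14 (95% interval 0.02 to 0.27). Between 10.2% and 13.5% of all probe sets had a signal under 5 on an array, so expression of Fabp6 could not be established in either group.

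Nr1h4, the gene of FXR, was bright in both groups. Its probe set 1419105_at read 970, 888 and 990 in knockout and 924, 1020 and 1090 in wild type. The groups overlapped and the means were 949 ± 53.7 and 1010 ± 83.6 (SD, n = 3). The log2 difference was −0.09 (95% interval −0.27 to 0.09), so that a change of the FXR transcript beyond 1.06-fold upward or below 0.831 of wild type lay outside the interval.

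Nr0b2 and Nr5a2, the genes of SHP and LRH-1, were too dim to be followed. Nr0b2 read 31.7, 10.6 and 16.2 in knockout and 49.7, 48.8 and 16.3 in wild type, where wild type array 3 fell among the knockout values. Its log2 difference was −0.95 with a 95% interval from −2.20 to 0.29. The 4 probe sets of Nr5a2 were below the median of their array on all 6 arrays, with signals between 1.5 and 40.6. They did not share a direction: the brightest, 1456521_at, had a log2 difference of −0.05 and the others −0.38, 0.69 and 0.90, each with an interval that included 0. A change of either gene within these intervals was not detectable on these arrays.

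**Figure D3:**
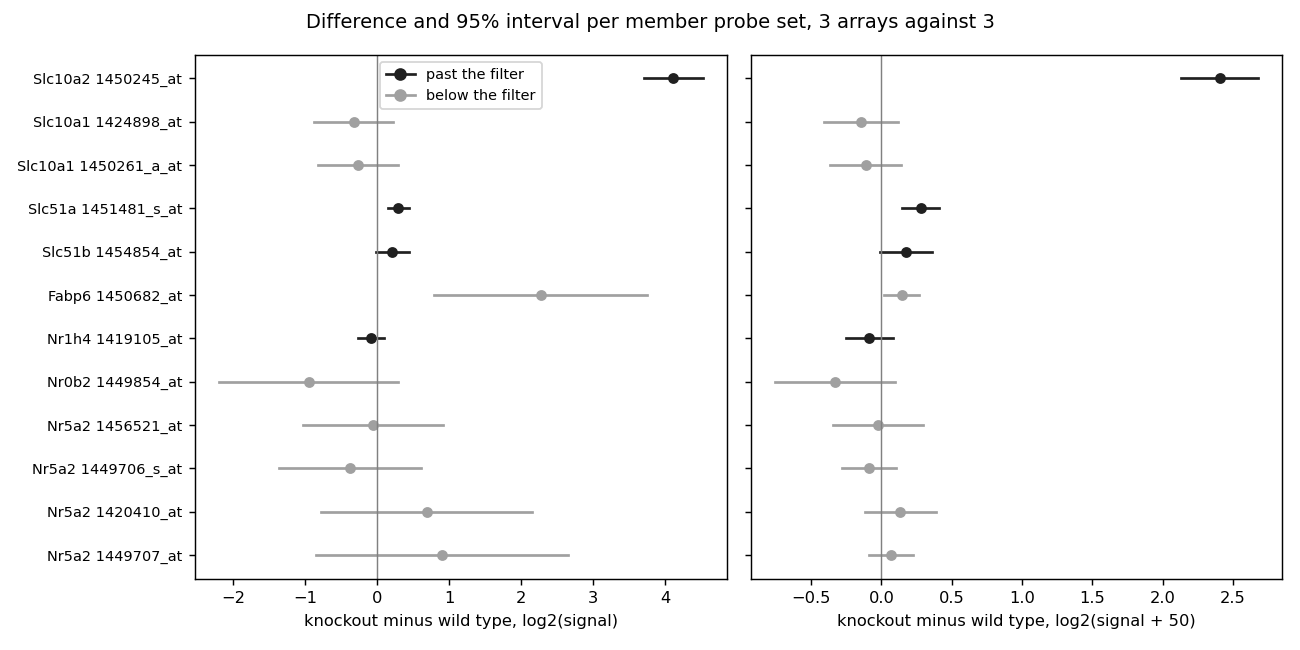
Difference between knockout and wild type with its 95% interval for each member probe set, as log2 signal (left) and as log2 of signal plus 50 (right). Black marks passed the filter on dim signals and grey marks did not. Slc10a2 lies at 4.11 and 2.40, Slc51a at 0.29 and 0.28, and the wide intervals of the dim Fabp6, Nr0b2 and Nr5a2 probe sets shrink toward 0 when 50 is added.

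In counts, 1 of the 12 member probe sets, that of Slc10a2, was past an adjusted p of 0.05 in limma's fit of all probe sets, where 1.89% of 45037 were. The count was also 1 with 50 added, where the background was 1.95%. Groups did not overlap for 3 of the 12 (Slc10a2, Slc51a and Fabp6), against 17.6% of all probe sets. In the fit of 11620 genes that passed the filter, with 1 probe set each, 6.48% were past the threshold, and of the 4 members in it Slc10a2 and Slc51a were. The position of Slc51a was not firm: it was not past the threshold among all probe sets, except after quantile normalization, nor among the filtered genes without the intensity trend of the fit or without knockout array 1, wild type array 2 or wild type array 3. The rule that brought the members together used this contrast, so nothing is read from these counts.

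The genes whose pattern over the 6 arrays was nearest to that of Slc10a2 were found by the root mean square difference of log2 signals, each gene centred on its own mean, among the 11620 genes. Gdpd3, a lysophospholipase D, was nearest at 0.395, followed by the actin regulator Cap1 (0.915), Tmem267 (0.965), Ppard, which encodes the nuclear receptor PPARδ (1.07), and Abhd1 (1.08). With 50 added the order began again with Gdpd3 (0.222), Cap1 (0.231) and Tmem267 (0.333), then Rpgrip1 (0.374) and Prxl2b (0.468). With 3 arrays a group this measure mostly follows the difference between the groups, which was 3.51 for Gdpd3 and 2.30 for Cap1 on the log2 scale. With 50 added the difference was 2.41 for Gdpd3 and 2.00 for Cap1. Gdpd3 averaged 408 in knockout and 36 in wild type, where the filter level was 41.9. Like Slc10a2, it thus passed the filter through its knockout arrays.

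Among the genes listed under bile acid synthesis, Amacr rose and Acaa1b fell. Of 20 listed genes, 15 passed the filter, and these 2 (13.3%, beside 6.48% of all genes tested) were at an adjusted p under 0.05, with a median log2 change of −0.11 beside 0.01 over all genes tested. Of all genes tested, 3.24% rose and 3.24% fell. Amacr, the racemase that prepares branched side chains of bile acid precursors and fatty acids for shortening in peroxisomes, had signals of 2480, 2550 and 2350 in knockout and 1690, 1590 and 1390 in wild type, a 1.58-fold rise (log2 change 0.66, SE 0.08, limma adjusted p = 4.79e-04). Acaa1b, a peroxisomal thiolase of fatty acid shortening, read 2470, 2510 and 2470 in knockout and 3270, 3160 and 3660 in wild type. This was a 1.35-fold fall (limma adjusted p = 0.00319, log2 change −0.44, SE 0.07). Both act in the general peroxisomal path, and in both the groups did not overlap.

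Other transporters of bile acids and organic anions included 1 that rose and 1 that fell among 19 tested of 24 listed. This was 10.5%, beside 6.48% of all genes tested. The median log2 change was 0.06, beside 0.01 over all genes tested. Abcc4, an efflux pump for bile acids and other anions, read 559, 502 and 521 in knockout and 361, 352 and 326 in wild type. Slco3a1, an organic anion carrier, read 639, 635 and 617 in knockout and 943, 922 and 953 in wild type. The log2 changes were 0.61 for Abcc4 (limma adjusted p = 6.22e-04) and −0.58 for Slco3a1 (limma adjusted p = 1.62e-04), and neither group pair overlapped. The other 17 did not pass the threshold.

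Of the 5 other SLC10 carriers listed, Slc10a3, Slc10a6 and Slc10a7 had a probe set and passed the filter, and none of these 3 passed the threshold. Slc10a3, whose function is little known, read 102, 103 and 130 in knockout and 136, 166 and 153 in wild type. Its groups did not overlap and its log2 change was −0.45 (95% interval −0.75 to −0.14, limma adjusted p = 0.0966), but without knockout array 3 it was −0.56 with an adjusted p of 0.0372. Slc10a6, a carrier of sulfated steroids, was at 0.15 (95% interval −0.18 to 0.49).

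Among nuclear receptors and other factors that act on bile acid genes or on Slc10a2, 2 of 16 tested genes rose and none fell, out of 32 listed. This was 12.5%, beside 6.48% of all genes tested. The median log2 change was 0.15, beside 0.01 over all genes tested. In 7 of 15 alternatives, left-out arrays included, 1 gene of the list fell. Jun, a subunit of the AP-1 factor, read 753, 819 and 853 in knockout and 544, 550 and 591 in wild type. It was 1.44-fold higher (log2 change 0.52, SE 0.07, limma adjusted p = 0.00108), and its other kept probe set was at 0.55. Fos, its partner, read 2060, 2120 and 1950 in knockout and 1570, 1820 and 1540 in wild type (log2 change 0.32, SE 0.08, limma adjusted p = 0.0331). The difference of Fos was 0.43 on station 1 and 0.10 on station 2, and its adjusted p reached 0.153 when single arrays were left out and was 0.14 without the intensity trend. Both are immediate early genes, a class known to respond to tissue handling, and the leukocyte and podocyte sums above were higher on the same arrays. The part of either in these rises was not tested.

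Fatty acid binding proteins, the family of Fabp6, were also looked at. Of 8 listed genes 5 were tested, 1 fell (20%, beside 6.48% of all genes tested) and none rose. The median log2 change was −0.13, beside 0.01 over all genes tested. Fabp3, the form of heart and muscle, read 632, 625 and 618 in knockout and 747, 758 and 773 in wild type (log2 change −0.28, limma adjusted p = 0.0152). Its second kept probe set went the other way, at 0.24, and the call ended when both were averaged (log2 change −0.02, adjusted p = 0.937) without the intensity trend (adjusted p = 0.082) and without any of the wild type arrays (adjusted p up to 0.0717).

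**Figure D4:**
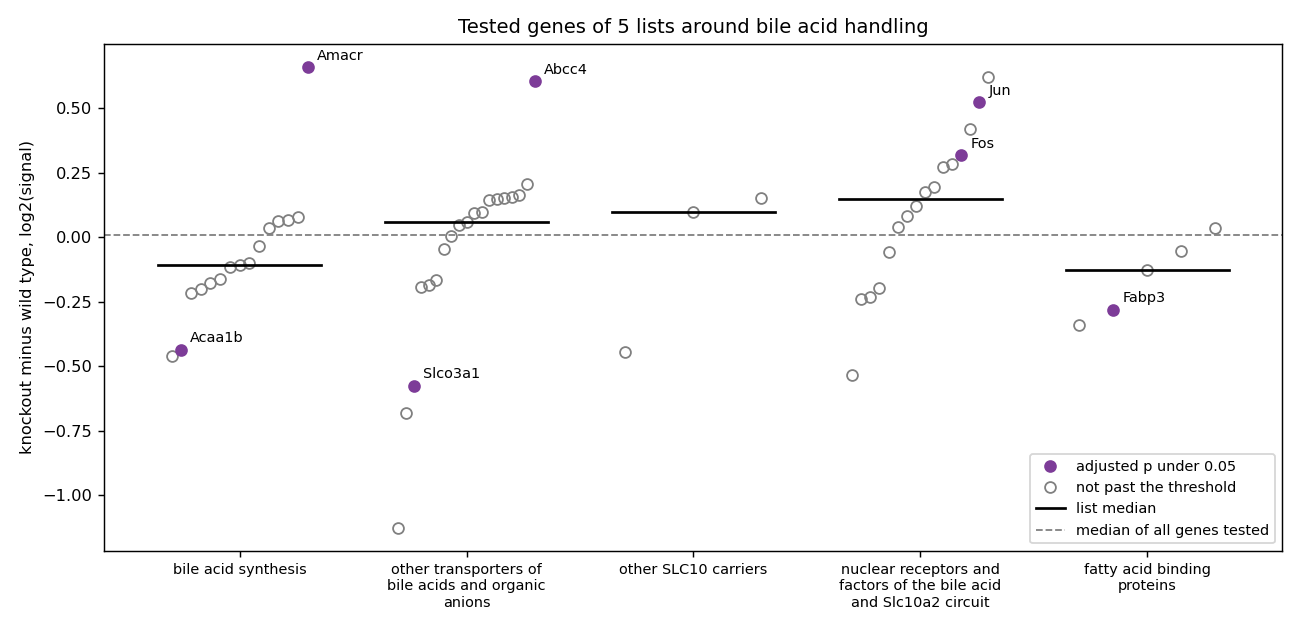
Log2 difference between knockout and wild type for the tested genes of 5 lists around bile acid handling. Filled points passed an adjusted p of 0.05, open points did not, black lines are list medians and the dashed line is the median of all genes tested, 0.01. In all, 7 of the 58 genes passed, 4 higher and 3 lower in knockout.

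Over the 5 lists 7 of 58 tested genes passed, which is 12.1%, beside 6.48% of all genes tested. These lists were written with earlier results of the same arrays known, so the share is a description.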

How the data were processed

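Each deposited value is a linear signal intensity. The submitters' processing notes name GCOS 1.4 and MAS5. Per the labels' protocols, biotin-labelled RNA was made from total RNA in a single amplification that starts at the poly(A) tail. With 2% of probe sets trimmed at each end, every array averages 150. No genome build is named, so coordinates are those of the RefSeq promoter windows alone. The number of arrays, 3 a group, limits the precision. The p-values measure the spread between arrays of pooled RNA, and not the spread between single mice.

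Signals were turned to log2 with nothing added, and again with 50 added. Knockout and wild type were compared with limma 3.58.1 under R 4.3.3 (lmFit, then eBayes with a trend on intensity). The fit left 4 residual degrees of freedom, tests were two-sided, and p-values were adjusted by Benjamini and Hochberg. The members were described from a fit of all 45037 probe sets that are not controls. Counts of lists came from 11620 genes, each represented by its brightest probe set past the filter. Named list genes are those past the threshold (up to 6 a list, or the 2 with the smallest p where none passed). The members and lists were chosen with earlier results of these data known. The fit was tested on simulated data for 11620 genes. It recovered 29.2% of genes given a log2 change of 0.5 and 76.4% of those given 1. Of its calls, 5.48% were false. A gene short of the threshold is thus not shown to be unchanged. Alternatives changed the transform, normalization, filter, choice of probe set, variance model and blocks, and left out each array. One promoter motif is not reported here. Figures were drawn with Python 3.11.15 and matplotlib 3.10.9.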

Additional observations from a re-analysis of the deposited data

How the results depend on the processing

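Of the member differences, Slc10a2 (2.40 in place of 4.11) and Fabp6 (0.14 in place of 2.27) moved by more than the spread between arrays with 50 added. The other settings moved no member by that much, and the difference of Slc10a2 stayed above 0 in all of them. Adding 50 to the within-array ratios, an alternative chosen after seeing the data, moved all 3 down, to between 2.13 and 2.49. Without single arrays Slc10a2 lay between 3.98 and 4.24. Over all genes the fit called 377 higher and 376 lower. Without the intensity trend 236 were higher, and 487 in all. Without single arrays the counts were 248 to 340 higher and 246 to 396 lower, with the fewest higher (248) without wild type array 2 and the fewest lower (250 and 246) without wild type arrays 1 and 3.

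The list of receptors and factors had 2 calls, and 1 without the filter, 1 without the trend, 4 with averaged probe sets and 1 to 3 without single arrays, with 1 without wild type array 1. One of these calls was a fall with quantile normalization, the stricter filter, averaged probe sets, either block, and without knockout array 2 or 3. The binding proteins had 1 call, and 2 without the filter, 0 without the trend and 0 to 1 without single arrays, with 0 without any of the wild type arrays. The other SLC10 carriers had 0, and 1 without knockout array 3, so 0 to 1 without single arrays. The cause of these moves was not tested. The array numbers of the titles did not pair the arrays: the correlation of same-numbered arrays' deviations from their group means, across genes, was 0.021, 0.031 and −0.034. With the replicate block 765 genes were called, and 4 of the receptors and factors. Signals near the array's median or below it limit what can be said of Slc10a1, Fabp6, Nr0b2 and Nr5a2.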

Other observations

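Some other genes of the lists, picked with their values in view, had groups that did not overlap without passing limma's threshold. Groups did not overlap for 23 of the 58 tested list genes and for 2927 of all 11620 genes tested. Ppara, the gene of the nuclear receptor PPARα, which is known to act on Slc10a2, had signals of 686, 778 and 479 in knockout and 939, 863 and 957 in wild type (log2 change −0.53, limma adjusted p = 0.0573), with the lowest value on knockout array 3. Abcb1b, of a multidrug efflux pump, read 35.6, 59.7 and 20.0 against 66.5, 87.8 and 75.5 (log2 change −1.13, limma adjusted p = 0.0938), close to the filter level, and its other kept probe set was at −0.18. Abcc6, of a further efflux pump, was at −0.68 (limma adjusted p = 0.0898). Ncoa1, a coactivator of nuclear receptors, was at 0.42 (limma adjusted p = 0.0594), and 0.29 on its second kept probe set. The partner receptor Rxra, with overlapping groups, was at 0.08 (95% interval −0.09 to 0.26).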
